A study of Mus musculus with 12 samples.

Results

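*Marcks*, *Rftn1*, *Ezr*, *Svil* and *Myo5a* encode proteins of the plasma membrane, of its links to actin, and of transport along actin. These 5 genes of cell migration were chosen from the differences between *Scnn1b*-Tg and WT airway macrophages (AMs) in the RNAseq libraries described here. They come from the 1999 genes that could be given a name among the 19161 rows of the count table. The named genes are those that the study's own table lists for the same comparison, and they were selected there for small p-values. The values of the 5 genes are therefore a description of these libraries, and they give no independent support for a difference.

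AMs patrol the airway surface by crawling. During crawling, actin filaments push the membrane forward, adhesion receptors hold the cell to its substrate, and myosin motors contract the rear and carry vesicles. Linker proteins decide how tightly the membrane is held to the actin cortex beneath it, and phosphoinositides in the inner leaflet regulate many of them.

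*Scnn1b*-Tg mice on the C57BL/6 background carry the β subunit of the epithelial Na+ channel as a transgene, driven in airway cells by the club cell secretory protein promoter, and develop mucus obstruction. AMs (CD45+Siglec-F+CD11c+) were sorted from the lungs of female *Scnn1b*-Tg mice and of their WT littermates on the same background, all 6 weeks old. The data comprise 6 *Scnn1b*-Tg and 6 WT libraries, of which batches 1, 2 and 3 hold 1 of each genotype and batch 4 holds 3 of each. In batch 4, the titles place the WT and the *Scnn1b*-Tg libraries on different flow cells, so that genotype and flow cell cannot be told apart there. The total count was between 40259958 and 121813289 in *Scnn1b*-Tg libraries and between 45414386 and 110091439 in WT libraries, and each total of batch 4 was below each total of the other batches. *Scnn1b* itself was at 72.0 and 54.1 CPM (counts scaled to the library total after TMM) in the *Scnn1b*-Tg libraries of batches 1 and 2, and between 1.15 and 4.35 CPM in the other 4. Each WT library had less than the *Scnn1b*-Tg libraries of its batch. The WT values were 11.6, 12.8 and 1.48 CPM in batches 1, 2 and 3, and at most 0.297 CPM in batch 4. The transgene is driven in epithelial cells, so that these values do not check the genotype of the AMs.

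*Myo5a* was higher in *Scnn1b*-Tg AMs in every batch, and *Marcks* had higher, and *Ezr* and *Svil* lower, values in *Scnn1b*-Tg AMs in every batch. *Rftn1* was far lower in *Scnn1b*-Tg AMs of batches 1 to 3 and at the WT level in batch 4. A row counted as a DEG if edgeR's quasi-likelihood test, blocked by batch, gave a p-value below 0.1 after Benjamini-Hochberg adjustment and the log2 fold change was larger than 0.5 in size. Standard errors are given as SE. All 5 genes passed the filter on low counts, and 1 of them, *Myo5a*, was a DEG, where 0.354% of the 16972 rows tested and 3.00% of the 1999 named rows were. For the same 1 gene the genotypes were without overlap in all 12 libraries, against 0.259% of all rows and 2.15% of the named rows. The direction was the same in each of the 4 batches for 4 of the 5 genes, as it was for 16.1% of all rows and 62.7% of the named rows. Because the genes were chosen on this comparison, nothing is read from these shares.

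**Figure D1:**
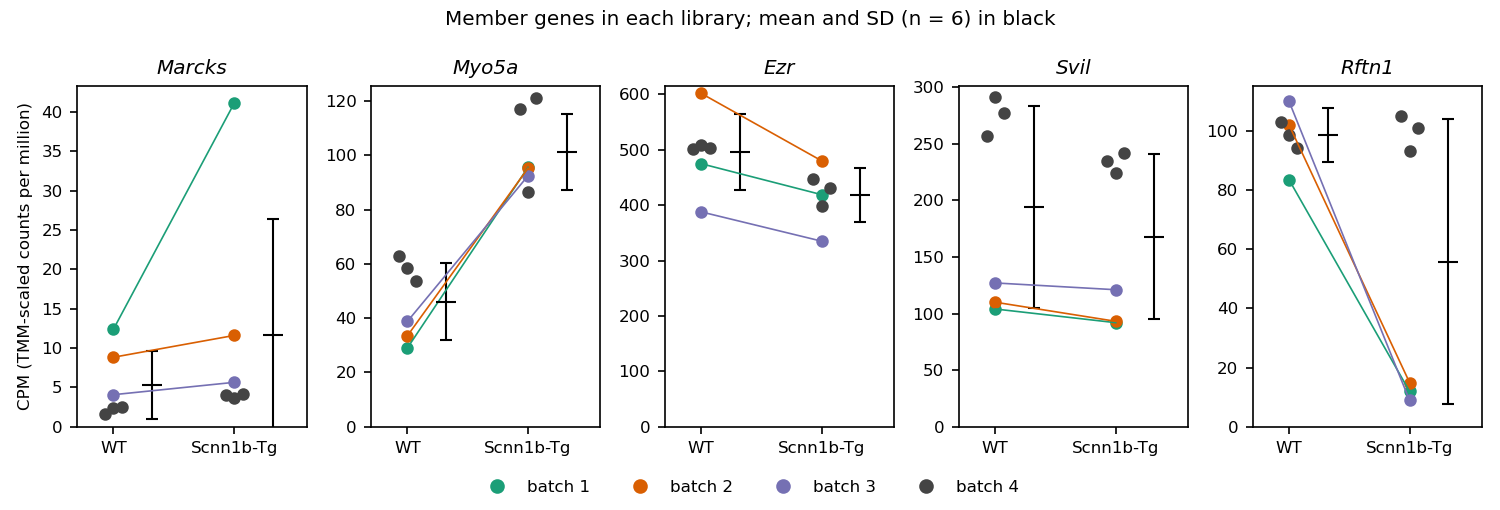
CPM of the 5 genes (vertical axes) in the 6 WT and 6 *Scnn1b*-Tg libraries, with lines joining the libraries of batches 1, 2 and 3, and the mean and SD of each genotype in black (the lower bar of *Marcks* in *Scnn1b*-Tg AMs ends at the axis). *Myo5a* lies at 86.5 CPM or more in *Scnn1b*-Tg AMs and at 62.8 CPM or less in WT AMs, and *Rftn1* lies at 14.9 CPM or less in the *Scnn1b*-Tg libraries of batches 1 to 3.

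Per length of their exons, the 5 genes covered a wide range of levels. *Ezr* had 151 ± 20.9 CPM per kb in WT AMs (SD, n = 6). *Rftn1* followed at 21.9 ± 2.01 CPM per kb and *Svil* at 18.2 ± 8.35 CPM per kb, and the libraries of this pair overlapped. *Myo5a* had 3.11 ± 0.954 CPM per kb and *Marcks* 1.31 ± 1.07 CPM per kb, again with overlap between the libraries of both. In *Scnn1b*-Tg AMs, *Ezr* remained the highest at 127 ± 15.0 CPM per kb, *Svil* (15.7 ± 6.83) and *Rftn1* (12.4 ± 10.7) overlapped, and *Myo5a* at 6.84 ± 0.955 CPM per kb and *Marcks* at 2.89 ± 3.63 CPM per kb were the lowest by their means. These means pool batches: in batches 1 to 3 *Rftn1* lay below *Myo5a* in *Scnn1b*-Tg AMs, and in WT AMs *Svil* lay below *Rftn1* in batches 1 to 3 and above it in batch 4. In batch 1, *Marcks* lay above *Myo5a* in both genotypes, and in *Scnn1b*-Tg AMs also above *Svil* and *Rftn1*. The exon lengths join all annotated isoforms, which can lower the values of genes with many isoforms, here *Svil* (15 annotated transcripts) and *Myo5a* (14), against those of the other 3 genes.

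Levels also differed between batches. Averaged over both genotypes, batch 4 minus batches 1 to 3 was −1.82 on the log2 scale for *Marcks*, 1.24 for *Svil*, 0.49 for *Myo5a* and 0.07 for *Ezr*. The value for *Rftn1*, 1.55, came from its 3 low *Scnn1b*-Tg libraries, since WT means were 98.3 CPM in batches 1 to 3 and 98.4 CPM in batch 4. Over all rows tested, the median size of this difference was 0.88. The study describes paired-end and single-end libraries made with different kits, and the kind of each library is not given in the labels, so that the part of the kit in these differences was not tested. After removal of batch and genotype, the residual SDs of *Ezr* and *Svil* were 0.05 and 0.07 on the log2 scale. The median over all rows was 0.41, but both genes are among the more abundant rows (percentiles 98.4 and 94.2 of the mean level), so that this is no comparison of rows of like level.

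*Marcks* encodes a substrate of protein kinase C that sits at the inner leaflet, where it binds phosphoinositides and actin and is released by phosphorylation or by calmodulin. The gene (ENSMUSG00000069662) lies on mm10 chromosome 10 from 37133375 to 37138920, on the reverse strand, and no annotated gene overlaps it. In *Scnn1b*-Tg AMs, *Marcks* was between 3.65 and 41.1 CPM with a median of 4.92 CPM, and in WT AMs between 1.66 and 12.4 CPM with a median of 3.29 CPM. In batch 1 the *Scnn1b*-Tg library had the highest value of all 12 and the WT library the second highest, and the genotypes overlapped. Within batches, *Marcks* was 41.1 against 12.4 CPM in batch 1, 11.6 against 8.83 CPM in batch 2, 5.64 against 4.07 CPM in batch 3, and 3.94 ± 0.274 against 2.17 ± 0.448 CPM (SD, n = 3 each) in batch 4, the *Scnn1b*-Tg value first. The log2 fold change was 0.86 (SE 0.20, adjusted p = 0.169), and *Marcks* was not a DEG. It was called with DESeq2's Wald test (0.85, adjusted p = 0.00807) and with limma-voom (1.07, adjusted p = 0.0829). Both made more false calls than edgeR on simulated data. Those data were drawn from edgeR's own fit, so that they do not decide between the tests for *Marcks*. Without both libraries of batch 1, a setting chosen after seeing the data, the log2 fold change was 0.68 (adjusted p = 0.424).

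Genes listed as markers of dendritic cells were high in the same library as *Marcks*. The study also uses the products of *Mgl2* and *Cd209a* to describe activation of macrophages, and its dendritic cells lack Siglec-F, for which AMs were sorted. Of the 8 genes on that list 3 had a name, and *Mgl2* was the most abundant. Their summed level in the *Scnn1b*-Tg libraries of batches 1, 2 and 3 was 85.9, 7.56 and 2.90 CPM, and in those of batch 4 it was 0.80, 3.13 and 5.42 CPM. In WT libraries the sum was 7.59, 1.61 and 1.26 CPM in batches 1, 2 and 3, and 0.399, 0.298 and 0.427 CPM in batch 4. *Flt3* was at 0 in the *Scnn1b*-Tg library of batch 2, in 1 *Scnn1b*-Tg library of batch 4 and in the WT libraries of batches 3 and 4. *Cd209a* was at 0 in 2 WT libraries of batch 4 and *Mgl2* in 1 *Scnn1b*-Tg library of batch 4. Whether other cells or activated AMs had a part in the *Marcks* values was not tested. In sorted bulk samples, more cells of a type and more RNA per cell cannot be told apart, and neither can fewer cells and less RNA.

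**Figure D2:**
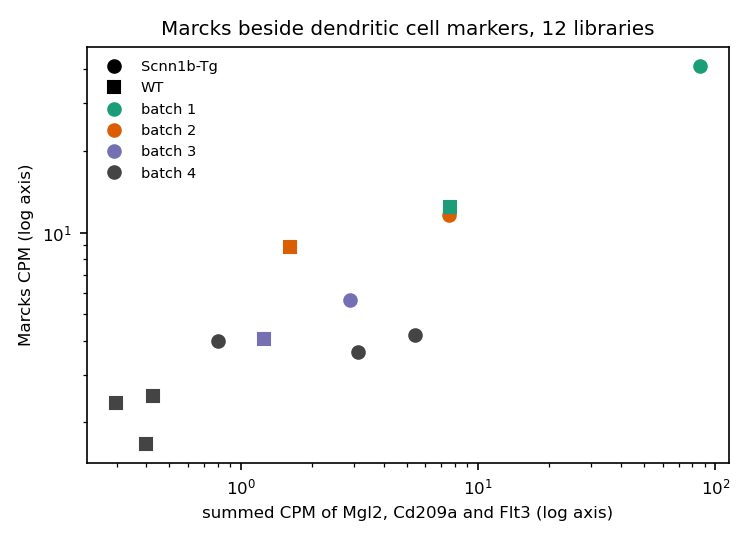
*Marcks* (vertical log axis, CPM) against the summed CPM of *Mgl2*, *Cd209a* and *Flt3* (horizontal log axis) in the 12 libraries, with circles for *Scnn1b*-Tg and squares for WT and a colour for each batch. The *Scnn1b*-Tg library of batch 1 lies apart at 41.1 CPM of *Marcks* and 85.9 CPM of the markers.

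Of the 22 genes on a list of the MARCKS family and of partners in phosphoinositide and protein kinase C signalling, 6 had a name. None was a DEG, 4, with *Marcks* itself, had higher and 2 lower estimates, and their median log2 fold change was 0.30, against 0.01 over all rows and 0.20 over the named rows. *Basp1*, whose product is a related phosphoinositide-binding protein of the inner leaflet, was at 16.8 ± 7.56 CPM in *Scnn1b*-Tg AMs and 9.22 ± 3.79 CPM in WT AMs (SD, n = 6 each), with a log2 fold change of 0.82 (SE 0.17, adjusted p = 0.128). The estimate of *Plcb1*, which encodes a phospholipase that cleaves phosphatidylinositol bisphosphate, was −0.57 (adjusted p = 0.119). *Prkcd*, the most abundant gene on the list and a kinase of MARCKS proteins, had an estimate of 0.36 (adjusted p = 0.409).

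*Rftn1* encodes raftlin, a lipid raft protein anchored to the inner leaflet by acylation. It is located on chromosome 17 from 49992257 to 50190674, on the reverse strand (ENSMUSG00000039316). A long noncoding RNA gene on the opposite strand lies within an intron and shares no exon with it. In *Scnn1b*-Tg AMs, *Rftn1* was at 11.9, 14.9 and 8.86 CPM in batches 1, 2 and 3, and at 105, 93.2 and 101 CPM in batch 4. In WT AMs it was at 83.5, 102 and 110 CPM in batches 1, 2 and 3, and at 103, 98.4 and 94.1 CPM in batch 4. The 3 *Scnn1b*-Tg libraries of batches 1 to 3 were thus low and the other 9 libraries lay close together, without overlap between them. The fit over all libraries gave a log2 fold change of −1.51 with an SE of 0.56 (adjusted p = 0.477), which is the value of no batch. A fit of batches 1 to 3 alone gave −3.07 (SE 0.23, adjusted p = 0.158), and a fit of batch 4 alone gave 0.02 (SE 0.08, adjusted p = 0.966).

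The difference in genotype effect between batch 4 and batches 1 to 3 was fitted for all rows with an added coefficient. *Rftn1* had a value of 3.09 (SE 0.23, adjusted p = 0.00218 by the same test), the second smallest p-value of all rows. Of the 5 genes, 1 passed the threshold of 0.1 in this fit, against 0.112% of all rows (19 of 16972, with 1130 at an unadjusted p-value under 0.05). Most of the 19 rows had a name, so that the share was higher among the named rows, from which the 5 genes come. Nothing is read from this count. For *Rftn1*, leaving out 1 library at a time gave values between 2.84 and 3.27, with adjusted p-values between 4.3e-04 and 0.0206. Batches 1 to 3 and batch 4 differ in total count as well as in batch, and whether library type, isoform usage, counting from coverage or the animals had a part in the *Rftn1* values was not tested. The same coefficient was −0.61 for *Myo5a* (adjusted p = 0.679), −0.07 for *Svil* (adjusted p = 0.958), −0.01 for *Ezr* and 0.00 for *Marcks* (adjusted p = 1 each).

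Of the 22 genes on the lipid raft list, 3 had a name, and none was a DEG. The estimates were 1 higher and 2 lower, with a median log2 fold change of −0.97, and *Rftn1* itself is 1 of the 2 lower ones. *Fyn*, a kinase anchored in rafts, was at 32.3 ± 7.93 CPM in *Scnn1b*-Tg AMs against 24.2 ± 4.71 CPM in WT AMs (SD, n = 6 each; log2 fold change 0.40, adjusted p = 0.342). *Cavin2*, which encodes a caveolar coat protein, had an estimate of −0.97 (SE 0.38, adjusted p = 0.512), with −1.91 in batch 4 and between −0.27 and 0.23 in batches 1 to 3.

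*Ezr* encodes ezrin, which in its phosphorylated form links membrane proteins to actin filaments in the cortex. The gene (ENSMUSG00000052397) lies on chromosome 17 from 6738041 to 6782784, on the reverse strand. Its exons share 4 bases with those of *Sytl3* on the opposite strand, and the counts were made without strand. *Ezr* was between 335 and 480 CPM in *Scnn1b*-Tg AMs with a median of 425 CPM, and between 388 and 602 CPM in WT AMs with a median of 503 CPM. The genotypes overlapped over all libraries because batch 2 was high and batch 3 low in both. Within batch 4, the *Scnn1b*-Tg libraries (426 ± 24.3 CPM) lay below the WT libraries (505 ± 3.78 CPM; SD, n = 3 each), and 4 of the 5 genes were without overlap in that batch, where 15.0% of all rows were. The log2 fold changes of *Ezr* were −0.18, −0.33, −0.21 and −0.25 in batches 1 to 4. The fit with batch as a block gave −0.24 (SE 0.05, adjusted p = 0.108). The estimate is less than the 0.5 required of a DEG under each setting tried, whatever the p-value.

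On the list of ezrin-radixin-moesin proteins and other membrane linkers, 8 of 25 genes had a name. None was a DEG, 2 had higher and 6, with *Ezr* itself, had lower estimates, and the median log2 fold change was −0.17. *Ahnak*, which encodes a giant scaffold beneath the membrane, was at 653 ± 87.7 CPM in *Scnn1b*-Tg AMs and at 967 ± 230 CPM in WT AMs (SD, n = 6 each), with an estimate of −0.54 (SE 0.11, adjusted p = 0.119). By batch, *Ahnak* had −0.14, −0.15, −0.42 and −0.84 in batches 1 to 4. *Add3*, for an adducin that caps actin filaments at the spectrin skeleton, had 152 ± 9.81 against 174 ± 12.7 CPM, without overlap between the genotypes, and an estimate of −0.19 (adjusted p = 0.461). *Selplg*, the gene of the selectin ligand PSGL-1 that ezrin-family proteins bind, had an estimate of 0.18 (adjusted p = 0.417).

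**Figure D3:**
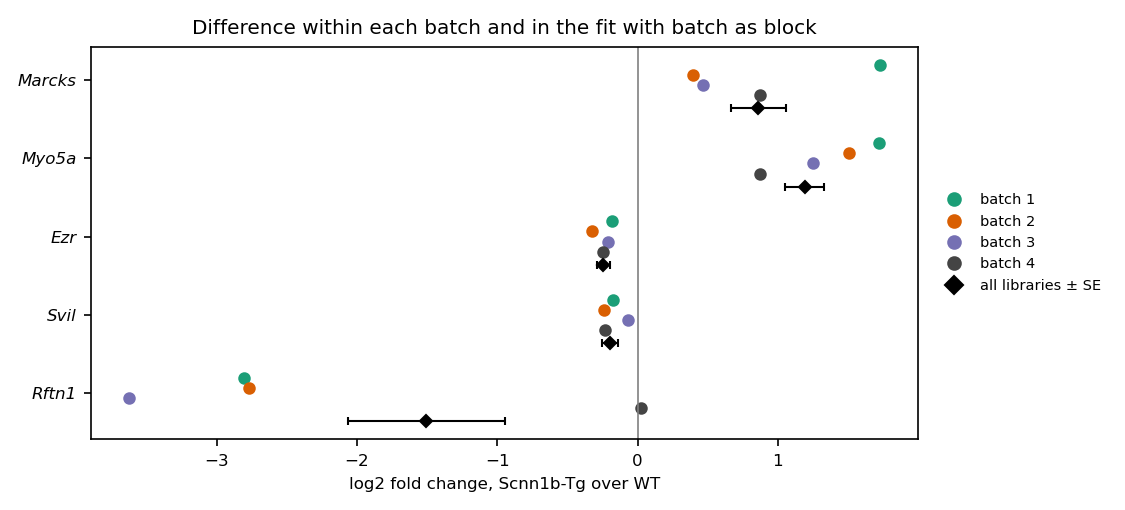
Log2 fold change of *Scnn1b*-Tg over WT AMs (horizontal axis) for each gene within batches 1 to 4 (coloured points, means of log2 CPM) and in the fit over all 12 libraries with batch as a block (black diamonds with SE bars). *Marcks*, *Myo5a*, *Ezr* and *Svil* lie on 1 side of 0 in every batch, whereas *Rftn1* lies at −2.81, −2.77 and −3.62 in batches 1 to 3 and at 0.02 in batch 4.

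*Svil* encodes supervillin, a membrane-associated scaffold of the villin and gelsolin superfamily that binds actin and myosin II and takes part in podosome turnover. It occupies chromosome 18 from 4920540 to 5119299 on the forward strand (ENSMUSG00000024236), with no overlapping gene annotated. Its level followed batch: *Svil* was between 91.9 and 121 CPM in the *Scnn1b*-Tg libraries of batches 1 to 3 and between 104 and 127 CPM in the WT libraries, but between 224 and 291 CPM in all libraries of batch 4. Over all libraries the medians were 173 CPM in *Scnn1b*-Tg AMs and 192 CPM in WT AMs, and the genotypes overlapped. Within each batch the *Scnn1b*-Tg value was the lower one, with log2 fold changes of −0.17, −0.24, −0.07 and −0.23 in batches 1 to 4. The fitted log2 fold change was −0.20 (SE 0.06, adjusted p = 0.331), and *Svil* was not a DEG. Of the 8 genes of this superfamily, *Gsn* was the other one with a name, and the median of the pair was 0.12. *Gsn*, for the actin-severing protein gelsolin, was at 226 ± 66.4 CPM in *Scnn1b*-Tg AMs and at 163 ± 30.7 CPM in WT AMs (SD, n = 6 each). With a log2 fold change of 0.44 (SE 0.08, adjusted p = 0.0599) it passed the p-value threshold but not the one for size, and its direction was opposite to that of *Svil*.

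*Myo5a* encodes the heavy chain of myosin Va, which walks along actin filaments with vesicles and other organelles as cargo. The gene (ENSMUSG00000034593) lies on chromosome 9 from 75071015 to 75223688 on the forward strand, and 2 processed pseudogenes on the opposite strand lie within it and share no exon with it. *Myo5a* was between 86.5 and 121 CPM in *Scnn1b*-Tg AMs with a median of 95.5 CPM, and between 29.0 and 62.8 CPM in WT AMs with a median of 46.4 CPM. Each *Scnn1b*-Tg library was higher than each WT library. The WT libraries of batches 1, 2 and 3 were the lowest at 29.0, 33.5 and 38.8 CPM, whereas those of batch 4 had 58.4 ± 4.47 CPM (SD, n = 3). *Myo5a* rose by 1.19 on the log2 scale (SE 0.14, 2.28-fold, adjusted p = 0.00977). The log2 fold changes were 1.72, 1.51 and 1.25 in batches 1, 2 and 3 and 0.87 in batch 4. Each of the 12 fits without 1 library called it too, with adjusted p-values between 0.00452 and 0.0431. It was not a DEG within batches 1 to 3 alone (1.49, adjusted p = 0.264), within batch 4 alone (0.89, adjusted p = 0.103) or without the block (1.14, adjusted p = 0.480).

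Adaptors couple myosin Va to its cargo. Of the 20 genes on the adaptor list 4 had a name, of which 2 were DEGs, both higher, where 3.00% of the named rows were DEGs. Nothing is read from a share of 4 genes selected in this way. The median log2 fold change was 0.63. *Rilpl2*, whose product binds the globular tail of myosin Va, was at 46.9 ± 6.48 CPM in *Scnn1b*-Tg AMs and 30.6 ± 5.40 CPM in WT AMs (SD, n = 6 each), and rose by 0.62 on the log2 scale (SE 0.08, adjusted p = 0.0154). *Mreg*, for melanoregulin, which acts in the transport of melanosomes and in the maturation of phagosomes, was at 41.2 ± 25.5 against 25.1 ± 15.9 CPM and rose by 0.73 (SE 0.10, adjusted p = 0.0209). Each of the 12 fits without 1 library called both. Neither was called within batch 4 alone (adjusted p = 0.121 for *Rilpl2* and 0.205 for *Mreg*), within batches 1 to 3 alone (0.794 each) or without the block (0.870 and 1). Their estimates in these fits were close to the ones above, between 0.58 and 0.65 for *Rilpl2* and between 0.72 and 0.73 for *Mreg*. *Mlph*, for melanophilin, which links myosin Va to Rab27a on melanosomes, had an estimate of 0.65 (SE 0.17, adjusted p = 0.254), and *Spire1*, for an actin nucleator, had one of −0.12 (adjusted p = 0.652).

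Among 27 myosin genes, 5 had a name. *Myo5a* was the 1 DEG among them, 3 had higher and 2 lower estimates, and the median was 0.20. *Myo7a* was at 174 ± 140 CPM against 137 ± 111 CPM (log2 fold change 0.42, adjusted p = 0.384), and *Myo1f*, a long-tailed class I myosin of leukocytes, at 422 ± 59.8 against 371 ± 73.8 CPM (0.20, adjusted p = 0.442; SD, n = 6 each). The light chain gene *Myl6* had an estimate of −0.28 (adjusted p = 0.495).

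The lists of the actin machinery held 1 DEG. Of 49 actin-binding and actin-bundling genes 13 had a name, among them this gene, *Iqgap2*. *Iqgap2*, a scaffold of Rac1 and Cdc42, was at 53.5 ± 7.66 CPM in *Scnn1b*-Tg AMs and 80.9 ± 20.8 CPM in WT AMs (SD, n = 6 each), and fell with a log2 fold change of −0.56 (SE 0.10, adjusted p = 0.0599). It was called in 2 of the 12 fits without 1 library, where adjusted p-values went up to 0.17, and not with a block of 6 pairs (adjusted p = 0.209). *Iqgap2* was not called without the block or within batches 1 to 3 alone (−0.42, adjusted p = 0.794). Within batch 4 alone, where genotype and flow cell cannot be told apart, it was called (−0.71, adjusted p = 0.0351). The estimates of the list were 7 higher and 6 lower, with a median of 0.17. Of 28 genes of the Arp2/3, WASP, WAVE and WASH complexes 6 had a name, with 4 higher and 2 lower estimates, a median of 0.19 and 0 DEGs. *Arpc1b*, a subunit of Arp2/3 in leukocytes, had 0.22 (adjusted p = 0.167) and *Actr3*, for its subunit Arp3, −0.20 (adjusted p = 0.360).

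Among 18 integrin genes 6 had a name, and 1 was a DEG. *Itga4*, for the α4 chain that binds fibronectin and VCAM-1, was at 74.6 ± 27.0 CPM in *Scnn1b*-Tg AMs and at 117 ± 53.7 CPM in WT AMs (SD, n = 6 each). It fell with a log2 fold change of −0.59 (SE 0.09, adjusted p = 0.0297), although the genotypes overlapped. *Itga4* was not a DEG without 1 WT library of batch 4 (adjusted p = 0.105) or with a block of 6 pairs (adjusted p = 0.128). Neither was it a DEG without the block or within batches 1 to 3 alone (−0.44, adjusted p = 0.794). Within batch 4 alone, where genotype and flow cell cannot be told apart, it was called (−0.74, adjusted p = 0.0197). Estimates were higher for 3 and lower for 3 of the 6 genes, with a median of 0.06. *Itgad*, with the next smallest p-value after *Itga4*, had an estimate of −0.61 (SE 0.13, adjusted p = 0.13) and lower values in *Scnn1b*-Tg AMs in each batch. *Itgb2*, for the β2 chain and the most abundant gene on the list, had an estimate of 0.22 (adjusted p = 0.610). The named genes of all these lists carry the selection for small p-values described above, so that their counts do not describe the lists as a whole.

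For each gene, the pair of named genes with the most similar values over the 12 libraries was found by Pearson's r of log2 CPM after removal of batch means. *Myo5a* was most like *Aph1c* (r = 0.98) and *Hmox1* (r = 0.98), which were both DEGs with log2 fold changes of 0.70 (adjusted p = 0.0599) and 0.52 (adjusted p = 0.0400). These calls were lost in 11 and 7 of the 12 fits without 1 library, and with a block of 6 pairs (adjusted p = 0.209 and 0.156). *Marcks* was most like *Glmp* (r = 0.97) and *Sp140* (r = 0.96), and *Svil* most like *Atf5* (r = 0.98) and *Zc3h13* (r = 0.96). *Ezr* was most like *Senp6* (r = 0.96) and the integrin gene *Itga4* (r = 0.94). For these 4 genes, 0 unnamed rows had a higher r. *Rftn1* was most like *Mia3* and *Galnt3* (r = 0.97 each), and 8 and 11 unnamed rows had a higher r. The 12 libraries share batches and genotype, and the named rows share their selection, so that high values of r describe these libraries only.

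The sorted cells carried AM markers throughout. Of 20 AM genes 11 had a name, with *Chil3* as the most abundant, and their summed level was between 45800 and 98400 CPM in *Scnn1b*-Tg libraries and between 45300 and 62300 CPM in WT libraries. *Siglecf*, the gene of a sorting marker, was between 239 and 473 CPM in *Scnn1b*-Tg AMs and between 279 and 585 CPM in WT AMs, and its estimate was −0.31 (adjusted p = 0.0895). *Cd68* was a DEG with higher values (0.52, adjusted p = 0.0400) that was lost in 5 of the 12 fits without 1 library, and *Krt79* was a DEG with lower values (−0.65, adjusted p = 0.00886). The sum of 2 named monocyte genes was at most 15.4 CPM and that of 3 named B cell genes at most 9.07 CPM in any library. The 4 named neutrophil genes summed to between 105 and 163 CPM in *Scnn1b*-Tg and between 73.8 and 118 CPM in WT libraries. Of their estimates 3 were higher and 1 was lower. *Cxcr2* was at 18.0 ± 9.01 against 9.09 ± 4.43 CPM (1.02, adjusted p = 0.342) and *Mmp9* at 0.768 ± 0.736 against 0.068 ± 0.119 CPM (4.93, adjusted p = 0.249; SD, n = 6 each), both higher in *Scnn1b*-Tg AMs in each batch. *Mmp9* was at 0 in the WT libraries of batches 3 and 4, so that its estimate is no exact fold change. *Csf3r* had lower values in *Scnn1b*-Tg AMs in each batch (37.2 ± 14.3 against 47.5 ± 18.1 CPM; SD, n = 6 each), and its estimate was −0.35 (adjusted p = 0.290). *Mmp8* was a DEG, with an estimate of 0.73 (adjusted p = 0.0301), and was lost in 3 of those 12 fits. With a block of 6 pairs neither *Cd68* nor *Mmp8* was a DEG (adjusted p = 0.128 each). The 4 named T and NK cell genes summed to between 671 and 848 CPM in batches 1 to 3 and between 201 and 273 CPM in batch 4, nearly all of it from *Cd2*, and the 5 epithelial genes to between 192 and 365 CPM. None of the 6 eosinophil genes had a name. The part of other cells in the values of the 5 genes was not tested.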

How the data were processed

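RNAseq counts of 12 libraries were analysed. The deposited counts come from the authors' HISAT2 alignment to mm10 and from StringTie with prepDE and GENCODE M20. They are not normalized and are derived from coverage, so that totals are not numbers of reads. Strand was not used, and overlapping antisense genes can share counts.

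Gene names are absent from the count table. Each of 1999 genes of the study's supplementary table was given the row whose weighted sum of 12 counts equals its mean normalized count. The largest relative difference was 7.5e-15 and the next row differed by at least 2.9e-07. With weights fitted without them, 999 of 999 held-out genes had the same row. Fold changes and p-values of that table were not used. The 17162 other rows were tested without a name.

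Counts were scaled by TMM and tested with edgeR 4.0.16 (R 4.3.3; quasi-likelihood F test, filterByExpr with the design, Benjamini-Hochberg adjustment over all rows), with batch (4 levels) as a block. The study adjusted for the littermate, and the batch label was taken for it. The labels give the batch as shared. Deviations from the means of each genotype over all batches correlated at 0.599, 0.622 and 0.453 between the libraries of batches 1, 2 and 3. Libraries of the same number in batch 4 correlated at 0.414, 0.468 and 0.46 by this measure, so that it does not show a match within batches 1 to 3. With deviations from genotype means of batch 4 alone, the values there were −0.06, 0.00 and −0.01, and these numbers do not pair libraries. With 6 pairs in place of 4 batches, the replicate block gave 28 DEGs in place of 60. Log2 CPM used a prior count of 2. Of 30 pairs of libraries of 1 genotype, none agreed within sampling noise (lowest chi-square per row 58.4). Positions and exon lengths are from GENCODE M21, which has the same build.

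Genes named besides the 5 are *Scnn1b*, *Siglecf* as a sorting marker, on each of 9 pathway lists the DEGs and up to 4 others with the smallest p-values, on each of 8 marker lists the DEGs and up to 3 others with the highest level, and the 2 most similar genes for each of the 5. Genes under the observations were picked from the rows with a batch difference. A further list and a marker gene are not reported here. The genes and lists were chosen with earlier results of these data known. Alternatives covered normalization, filter, test (DESeq2 1.42.0, limma 3.58.1), block and left-out libraries. The naming of rows and the tests with batch as a block were tested on simulated data. For the tests, counts were drawn from edgeR's own fit to these libraries. Estimates were close to the simulated ones, and DESeq2 and limma-voom made more false calls than edgeR, whose share of false calls was itself somewhat above the threshold.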

Additional observations from a re-analysis of the deposited data

Results flagged for a closer look

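The genotype effect on *Rftn1* differed between batches, by 3.09 on the log2 scale (batch 4 minus batches 1 to 3, adjusted p = 0.00218). Of 136 groups of 6 libraries, made from the 68 named genes, 17 held a library that stood apart; chance gives about 1 in 20 groups, a rate that takes no account of the batches the libraries share. The *Scnn1b*-Tg library of batch 1 stood apart in 9 of the 17. Among the 5 migration genes this was so for *Marcks*, at 41.1 CPM. The others were *Chil3* (59300 CPM), *Mgl2* (47.4 CPM), *Cd209a* (35.8 CPM), *Itgb7* (15.4 CPM), *Tln2* (7.34 CPM), *Fcrla* (2.85 CPM), *Flt3* (2.73 CPM) and *Cd8a* (2.64 CPM). The WT library of batch 1 was far from the other WT libraries for *Mgl2* (4.42 CPM), *Cd209a* (2.73 CPM) and *Jchain* (1.20 CPM). The *Scnn1b*-Tg library of batch 2 was far from the others for *C1qb* (12.9 CPM), *Jchain* (6.05 CPM) and *Fcer2a* (2.08 CPM), and the WT library of batch 2 for *C1qb* (14.2 CPM). The WT library of batch 3 had the lowest value of *Lasp1* (76.1 CPM). Their causes were not tested.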

How the results depend on the processing

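Across all rows, the 60 DEGs became 243 with DESeq2's Wald test (60 of them shared), 97 with limma-voom, 28 with the replicate block of 6 pairs, 0 with no replicate block (337 rows at an unadjusted p-value under 0.05), 0 in batches 1 to 3 only (1009 rows), 52 in batch 4 only (16 of them shared) and 23 without batch 1. In batch 4, genotype and flow cell cannot be told apart. Leaving out 1 library gave between 22 (*Scnn1b*-Tg, batch 1) and 53. The batch difference, 19 rows, became 225 with DESeq2 and 11 without a filter, and was between 6 and 42 when 1 library was left out. The causes were not tested. The settings without batch 1 and with a filter by group size (70 DEGs) were chosen after seeing the data. *Myo5a* kept its direction under 12 of 12 settings and its call under 9. The exceptions were no replicate block (1.14), batches 1 to 3 only (1.49) and batch 4 only (0.89). *Marcks* passed the threshold with DESeq2 (0.85) and limma-voom (1.07). *Rftn1* was at 0.022 in batch 4 only, with the opposite sign. Its log2 fold change was also smaller in size with no replicate block (−0.82) and with limma-voom (−1.22). *Ezr* (−0.26 to −0.24) and *Svil* (−0.23 to −0.16) kept direction and a size under 0.5 in 12 of 12 settings, the replicate block included. The adjusted p of *Ezr* was under 0.1 in 5 of them (0.0663 without scaling, 0.0784 with the 1 CPM filter, 0.0869 with the filter by group size, 0.0505 with limma-voom and 3.66e-05 with DESeq2), and that of *Svil* with DESeq2 (0.0268). The batch difference of *Marcks* turned to 0.014 with DESeq2's size factors and 0.012 with its Wald test, and that of *Ezr* to 0.015 with both. Without 1 library the log2 fold changes were 0.68 to 0.95 for *Marcks*, 1.08 to 1.29 for *Myo5a*, −0.26 to −0.22 for *Ezr*, −0.23 to −0.17 for *Svil* and −1.81 to −1.06 for *Rftn1*. The batch difference ranged from −0.21 to 0.45 for *Marcks* and from −0.042 to 0.043 for *Ezr*. *Marcks* had between 100 and 4047 counts per library. Single pairs in batches 1 to 3 have no replicate.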

Other observations

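Besides *Rftn1*, 18 rows passed the test for a different genotype effect in batch 4 than in batches 1 to 3. Of all 19 rows, 17 had a positive difference. Positive differences outnumbered negative ones under each setting, but by how much depended on the setting. DESeq2's Wald test gave 132 positive and 93 negative ones, and DESeq2's size factors gave 15 and 1. Without 1 *Scnn1b*-Tg library of batch 4 (replicate 6) there were 23 and 19. Many of the 17 rows were similar between genotypes in batches 1 to 3 and higher in *Scnn1b*-Tg AMs of batch 4, where genotype and flow cell cannot be told apart. *Plk3* had means of 68.6 and 73.3 CPM (*Scnn1b*-Tg and WT) in batches 1 to 3 and of 212 and 73.0 CPM in batch 4, and *Ccl3* had means of 33.8 and 28.2 CPM and of 113 and 19.3 CPM. The genes that follow, singled out after their values were seen, differed between genotypes in batches 1 to 3. *Mgat1*, for an enzyme of N-glycan synthesis, was between 3.51 and 10.7 CPM in the *Scnn1b*-Tg libraries of batches 1 to 3 and between 166 and 185 CPM in the WT libraries. In batch 4 it was between 15.6 and 51.0 CPM in *Scnn1b*-Tg and between 12.7 and 16.3 CPM in WT libraries (log2 difference 5.83, SE 0.71, adjusted p = 0.0379). *Ptger4*, for a prostaglandin E2 receptor, was between 19.5 and 26.3 CPM in *Scnn1b*-Tg AMs and at most 0.672 CPM in WT AMs of batches 1 to 3, whereas in batch 4 it was between 37.8 and 62.6 CPM in *Scnn1b*-Tg and between 18.1 and 40.1 CPM in WT libraries (−5.03, SE 0.51, adjusted p = 0.0149). *Mia3*, the named gene most like *Rftn1*, was among these rows too, between 34.0 and 43.1 CPM in *Scnn1b*-Tg and between 68.6 and 121 CPM in WT libraries of batches 1 to 3, and between 78.6 and 86.1 CPM in *Scnn1b*-Tg and between 66.4 and 89.9 CPM in WT libraries of batch 4. Whether isoform usage or the counting from coverage had a part in these values was not tested.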
